A study of Mus musculus with 28 samples.

Results

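NMuMG cells, a mouse mammary gland epithelial line that loses its epithelial form under TGF-β, carried 620 H3K27ac regions that were lost over 24h of TGF-β and were present at 24h when MEK was inhibited. These 620 restored regions were chosen among 89050 regions, each made by joining the overlapping peaks of 15 libraries. A restored region had a peak in 3 of 3 libraries of untreated cells, in 0 of 3 libraries after 24h of TGF-β and in at least 2 of 3 libraries after 24h of TGF-β with the inhibitor. They were 33.6% of the 1845 regions that had a peak in every untreated library and in none at 24h. The calls at 0h, 24h and ERKi 24h chose the regions, so their values in those 9 libraries are given as a description, and tests were made only in the 6 libraries taken at 4h.

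The study followed subclone NMuMG/E9, 1 line, in 5 conditions of 3 ChIP-seq libraries each. Cells were untreated (0h) or received TGF-β at 2 ng/ml for 4h or 24h with the solvent DMSO, conditions called 4h and 24h here. In ERKi 4h and ERKi 24h, UO126 at 25 µM was added 30 min before the same dose of TGF-β. No sample received UO126 without TGF-β, so an action of the inhibitor that does not need TGF-β and an action on the response to TGF-β cannot be told apart. The libraries held 50445 to 69180 peaks, and replicate 3 held the most in each condition. The library number carried in the peak names of ERKi 4h replicate 1 is out of the order of the others, and the results at 4h are also given without that library. The peak lists hold no read totals, so the depth is unknown.

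H3K27ac is the acetylation of lysine 27 of histone H3, which marks active promoters and enhancers, and in epithelial cells it lies over the enhancers of genes for junctions, polarity and epithelial transcription factors. MEK phosphorylates and activates ERK, the last kinase of the MAPK cascade, which TGF-β can switch on beside its Smad pathway. UO126 blocks MEK, and ERK signalling is among the pathways that epithelial-mesenchymal transition (EMT) draws on.

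Sequences are shown for 8 restored regions near a gene of signalling or epithelial identity, or with calls at 4h that followed the inhibitor, so that the base composition and motifs described further on can be seen. Each is the 300 bases around the summit of the region's peak with the highest -log10 p, on the + strand of mm9. Capitals mark matches on either strand to the letters TGANTCA (AP-1), AACCNGTT (GRHL), TACGTG (HIF), CATTCC (TEAD), TTGCNNAA (C/EBP) or GTTAATNAT (HNF1), where N is any base. The Dusp14 window, chr11:83887846-83888145, lies upstream of a gene for a phosphatase that acts on MAP kinases. The Pfkfb3 window is chr2:11347137-11347436, downstream of the start of a gene for a regulator of glycolysis. The windows chr9:116141395-116141694 and chr5:107732929-107733228 lie upstream of Tgfbr2, the type II TGF-β receptor, and of Tgfbr3, the co-receptor betaglycan. Grhl3, a transcription factor of epithelia, has a window in its intron, chr4:135126494-135126793, and 1 upstream, chr4:135131576-135131875. The window in Foxp1, a forkhead factor, is chr6:98888487-98888786, and that near Ehf, an ETS factor of epithelia, is chr2:103034031-103034330.
Dusp14: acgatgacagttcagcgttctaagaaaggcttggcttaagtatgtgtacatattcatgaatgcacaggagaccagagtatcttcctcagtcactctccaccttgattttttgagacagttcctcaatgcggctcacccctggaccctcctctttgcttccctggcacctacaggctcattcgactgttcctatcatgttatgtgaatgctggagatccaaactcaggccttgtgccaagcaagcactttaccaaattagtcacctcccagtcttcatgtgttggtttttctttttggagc
Pfkfb3: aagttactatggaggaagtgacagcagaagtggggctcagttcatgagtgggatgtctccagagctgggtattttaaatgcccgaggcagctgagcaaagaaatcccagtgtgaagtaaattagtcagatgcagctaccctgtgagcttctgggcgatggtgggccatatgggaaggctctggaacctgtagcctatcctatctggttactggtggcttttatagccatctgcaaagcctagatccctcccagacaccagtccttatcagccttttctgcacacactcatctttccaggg
Tgfbr2: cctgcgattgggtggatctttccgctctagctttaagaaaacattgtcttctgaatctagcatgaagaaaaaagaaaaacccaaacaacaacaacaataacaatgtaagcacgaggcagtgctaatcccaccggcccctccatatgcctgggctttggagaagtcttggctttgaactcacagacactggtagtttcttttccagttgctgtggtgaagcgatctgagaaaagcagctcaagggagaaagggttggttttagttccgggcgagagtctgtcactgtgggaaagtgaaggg
Tgfbr3: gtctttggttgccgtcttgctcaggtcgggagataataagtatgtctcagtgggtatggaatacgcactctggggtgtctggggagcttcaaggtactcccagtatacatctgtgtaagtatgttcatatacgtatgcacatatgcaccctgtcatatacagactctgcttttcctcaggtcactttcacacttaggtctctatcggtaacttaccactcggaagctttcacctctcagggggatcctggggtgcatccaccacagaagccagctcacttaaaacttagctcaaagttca
Grhl3 intron: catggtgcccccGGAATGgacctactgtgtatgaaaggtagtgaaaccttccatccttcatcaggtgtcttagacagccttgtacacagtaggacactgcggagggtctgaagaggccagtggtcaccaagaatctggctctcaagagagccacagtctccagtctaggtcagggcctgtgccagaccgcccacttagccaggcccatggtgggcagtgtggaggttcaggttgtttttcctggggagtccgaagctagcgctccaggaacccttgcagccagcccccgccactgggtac
Grhl3 upstream: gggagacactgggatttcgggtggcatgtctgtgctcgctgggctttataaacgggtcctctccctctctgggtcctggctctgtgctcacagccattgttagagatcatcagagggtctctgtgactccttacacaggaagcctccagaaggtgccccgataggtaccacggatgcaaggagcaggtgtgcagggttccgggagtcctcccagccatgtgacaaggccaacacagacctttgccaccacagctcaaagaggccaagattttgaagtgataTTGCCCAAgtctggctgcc
Foxp1: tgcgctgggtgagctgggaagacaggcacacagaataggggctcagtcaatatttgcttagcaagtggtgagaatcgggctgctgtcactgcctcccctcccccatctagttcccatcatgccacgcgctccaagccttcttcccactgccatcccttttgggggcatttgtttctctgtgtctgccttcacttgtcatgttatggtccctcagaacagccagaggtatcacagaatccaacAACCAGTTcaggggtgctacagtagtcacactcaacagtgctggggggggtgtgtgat
Ehf: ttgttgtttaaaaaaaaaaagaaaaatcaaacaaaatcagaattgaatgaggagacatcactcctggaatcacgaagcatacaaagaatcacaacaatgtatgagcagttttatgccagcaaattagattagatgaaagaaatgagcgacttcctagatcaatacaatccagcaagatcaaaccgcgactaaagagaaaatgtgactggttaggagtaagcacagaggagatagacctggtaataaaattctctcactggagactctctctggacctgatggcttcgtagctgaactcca
The intronic Grhl3 window holds a TEAD match, the upstream Grhl3 window a C/EBP match and the Foxp1 window a GRHL match. The other 5 windows hold no match to the 6 motifs. GC content runs from 38.0% at Ehf to 57.7% in the intronic Grhl3 window.

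The rule that chose the regions fixed their calls at 0h, 24h and ERKi 24h. Loss at 24h from all untreated libraries was seen at 2.07% of all regions, and 5.16% of all regions had no peak at 24h and peaks in at least 2 of 3 libraries at ERKi 24h. Among the 1845 lost regions, 807 had a peak in no library at ERKi 24h, 418 in 1, 310 in 2 and 310 in 3. The 807 with none are called still-lost regions here. In the opposite direction, 465 regions called in every untreated library had peaks in at least 2 of 3 libraries at 24h and in none at ERKi 24h, and these are called mirrored regions. They were 29.0% of the 1603 regions lost at ERKi 24h, beside the 33.6% of lost regions that were restored. In each ERKi 24h library, 81.5%, 70.8% and 97.7% of the restored regions had a peak (replicates 1 to 3). Leaving out 1 library of the rule, so that it asks for 1 of 2 at ERKi 24h or for 2 of 2 without a peak at 24h, gave 1059 regions without 24h replicate 2, 1129 without 24h replicate 3, 995 without ERKi 24h replicate 1 and 983 without ERKi 24h replicate 2. With 1 library fewer the rule is looser by construction.

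Restored regions were weak to moderate H3K27ac regions at 0h. Their median fold enrichment, the pileup of fragments at the summit over the local background, was 4.24 at 0h, against 5.50 over the 35409 regions called in every untreated library. In fragments, the median pileup was 26.7, against 67.0. Only 74 of them (11.9%) had a -log10 q of at least 10 in all 3 untreated libraries, against 65.7% of all regions called there. To compare libraries, each peak was given its percentile by pileup within its own list, and a library without a peak in the region was set to 0, which stands for no call and not for no signal. By this measure 513 restored regions (82.7%) lay under the middle of the lists at 0h. Their median was the percentile 28.2 at 0h, where every library had a peak, and 21.2 at ERKi 24h over the libraries with a peak. The rule asked for a peak in every library at 0h but in 2 of 3 at ERKi 24h, so these levels are not compared. The lists cannot tell a region that kept its mark throughout from one that lost and regained it, nor fewer cells with the mark from less mark per cell.

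At 4h of TGF-β most restored regions still had a peak. They had a peak in 61.0%, 70.2% and 91.6% of cases in the 3 libraries at 4h (replicates 1 to 3), which is 74.2% ± 15.7 (SD, n = 3). Of the 620 regions, 299 had a peak in all 3 libraries at 4h, 195 in 2, 94 in 1 and 32 in none. Calls at 4h were therefore incomplete, and 161 regions had a peak in all 12 libraries other than those of 24h. The rule set the share at 0h to 100%, so a lower share at 4h does not by itself show a loss. Mirrored regions, which had peaks at 24h, were called at 70.1%, 78.9% and 92.3% in the same libraries at 4h. The mean pileup percentile of the restored regions was 34.1, 26.5 and 34.9 at 0h and 14.2, 16.3 and 29.7 at 4h. In replicates 1 and 2 it was thus lower at 4h than in any untreated library, and in replicate 3 it lay inside their range. These changes from 0h are described without a test, since the calls at 0h chose the regions.

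**Figure D1:**
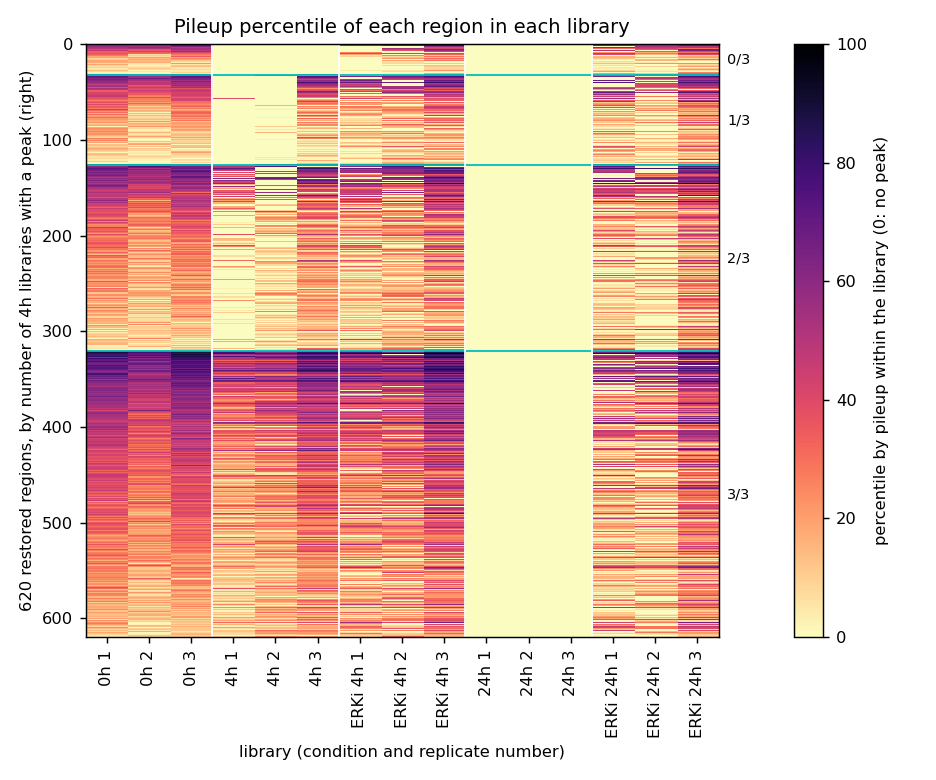
The heat map shows the percentile by pileup (colour, 0 to 100, with 0 for no peak) of each of the 620 restored regions (rows) in each of the 15 libraries (columns, condition and replicate number). Rows are grouped by the number of 4h libraries with a peak (0 to 3 of 3, right) and ordered by the mean percentile at 0h, and 299 rows have a peak in all 3 libraries at 4h and none at 24h.

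With the inhibitor, more restored regions had a peak at 4h in each replicate number, though the libraries of the 2 conditions overlapped. At ERKi 4h 82.6%, 83.5% and 95.6% of them had a peak, which is 87.3% ± 7.28 (SD, n = 3). The difference from 4h was 13.0 percentage points, higher in 3 of 3 replicate numbers (exact permutation test over libraries, two-sided, p = 0.300, Benjamini-Hochberg adjusted p = 0.360 over 6 tests). The replicate numbers were taken to pair the samples, from correlations in these data. With the number as a block the exact sign-flip test gave p = 0.25, the smallest that 3 pairs allow. The difference was 21.7 points without 4h replicate 3, 6.37 without 4h replicate 1 and 15.3 without ERKi 4h replicate 1, the library with the name out of order. By region, 238 of the 620 (38.4%) had a peak in more libraries at ERKi 4h than at 4h, 56 (9.03%) in fewer and 326 in as many. More libraries were seen at 5.53% and fewer at 5.79% of the regions called in every untreated library, of which 93.0% to 97.8% had a peak in each library. Of the still-lost regions, 247 (30.6%) had a peak in more libraries and 216 (26.8%) in fewer. At 4h the call rate of restored regions was thus higher with the inhibitor by 4.03 to 21.6 points in the 3 replicate numbers. The mean difference of 13.0 points was under the SD between libraries at 4h (15.7) and above that at ERKi 4h (7.28).

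The mean pileup percentile moved in the same direction. It was 14.2, 16.3 and 29.7 at 4h (20.1 ± 8.43, SD, n = 3) and 22.5, 24.3 and 36.0 at ERKi 4h (27.6 ± 7.31, SD, n = 3). The difference of 7.52 percentile points was seen in 3 of 3 replicate numbers, from 6.23 to 8.31 (exact permutation test, two-sided, p = 0.300, adjusted p = 0.360, with the replicate block exact p = 0.25). Without 4h replicate 3 it was 12.4, without ERKi 4h replicate 3 it was 3.34 and without ERKi 4h replicate 1 it was 10.1. A comparison of 3 libraries with 3 cannot give an exact p under 0.1, so no test of this size could pass 0.05.

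The restored regions stood further above the regions that stayed lost at ERKi 4h than at 4h. Still-lost regions had a peak in 28.1%, 39.0% and 70.1% of cases at 4h and in 33.7%, 48.2% and 59.9% at ERKi 4h. The restored regions exceeded them by 32.8, 31.1 and 21.5 percentage points at 4h and by 48.9, 35.3 and 35.8 at ERKi 4h. Every ERKi 4h library thus lay above every 4h library in this excess, and the difference was 11.5 points (28.5 ± 6.13 against 40.0 ± 7.69, SD, n = 3, exact permutation test, two-sided, p = 0.10, the smallest possible, adjusted p = 0.300). The still-lost regions were lower at 0h, with a median percentile of 21.7 against 28.2. Among regions with a mean percentile from 20 to 40 at 0h, 239 restored and 276 still lost, the difference was 4.30 points (exact permutation p = 0.60). The part of the starting level in the difference between these sets was not tested further. Without ERKi 4h replicate 1 the difference was 7.09 points.

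Mirrored regions went the other way at 4h. They had a peak in 70.1%, 78.9% and 92.3% of cases at 4h and in 40.0%, 51.0% and 55.7% at ERKi 4h. In the mean, mirrored regions went from 80.4% to 48.9%, a larger change than the 13.0 points of the restored regions. The excess of restored over mirrored regions was therefore -6.18 ± 4.80 percentage points at 4h and 38.4 ± 5.18 at ERKi 4h (SD, n = 3). This difference of 44.6 points was between 40.6 and 51.7 in the 3 replicate numbers (exact permutation test, two-sided, p = 0.10, the smallest possible, adjusted p = 0.300). It was 42.4 points without ERKi 4h replicate 1. Among regions with a mean percentile from 20 to 40 at 0h it was 37.0 points, with 166 mirrored regions. Over all 35409 regions called in every untreated library, calls stood at 93.0%, 93.9% and 97.8% at 4h and at 93.3%, 94.0% and 96.3% at ERKi 4h. The excess of restored over these regions differed by 13.4 points between ERKi 4h and 4h, with overlapping libraries (exact permutation p = 0.300, adjusted p = 0.360). Regions called in all 15 libraries within 10000 bp of a restored region, 423 in number, had a mean percentile of 68.5 ± 4.29 at 4h and 70.3 ± 3.29 at ERKi 4h (SD, n = 3, exact permutation p = 0.50, adjusted p = 0.50).

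**Figure D2:**
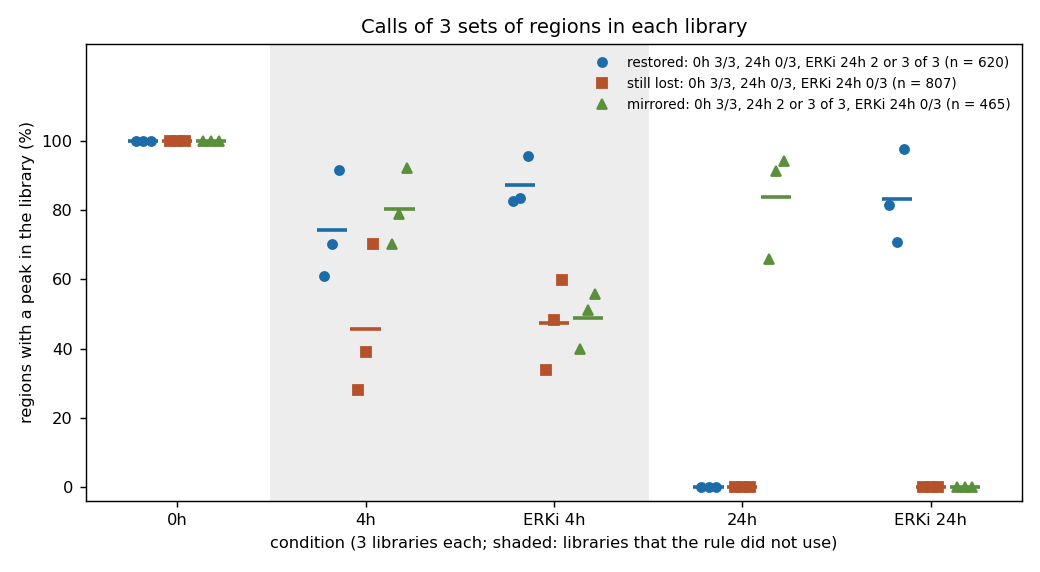
Each point is 1 library, the vertical axis is the share of a set's regions with a peak in it (%), short bars are means of 3 libraries, and the 3 sets are the 620 restored, 807 still-lost and 465 mirrored regions. In the shaded 4h and ERKi 4h columns, which the rule did not use, restored regions were called at 61.0% to 91.6% without and 82.6% to 95.6% with the inhibitor, and mirrored regions at 70.1% to 92.3% without and 40.0% to 55.7% with it.

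Region by region, restored regions leaned to higher levels at ERKi 4h. In 65 of them (10.5%) every ERKi 4h library lay above every 4h library by pileup percentile, where 2.58% of all regions and 4.76% of the regions called in every untreated library did so. Every ERKi 4h library lay below every 4h library in 4 restored regions (0.645%), against 2.46% of all regions and 5.02% of those called in every untreated library. By replicate number, 257 (41.5%) were higher with the inhibitor in each of the 3 numbers and 21 (3.39%) were lower in each, against 24.4% and 16.7% of the regions called in every untreated library. The share higher with the inhibitor is above its background and the share lower is below it on each of these counts. Still-lost regions were also below the background of regions called in every untreated library for lower, at 1.98% without overlap and 5.20% by replicate number. They were below it for higher as well, at 2.48% and 9.54%. A low share of lower regions was thus not particular to the restored regions. The count of 65 was 243 without 4h replicate 3, 168 without ERKi 4h replicate 1, and 132 without ERKi 4h replicate 2. The looser rules without 24h replicate 2 or 24h replicate 3 gave 118 of 1059 regions (11.1%) and 103 of 1129 (9.12%), near the 10.5% of the full rule. The count of 4 was at most 13 except without ERKi 4h replicate 3, where it was 30. Without 1 of the 6 libraries at 4h, full separation is easier by construction. No share over all regions is given for that setting, so these higher counts are not read as a larger effect.

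The median difference of ERKi 4h from 4h was 7.05 percentile points over the restored regions, 0 over the still-lost regions and -8.73 over the mirrored regions. It was 0.703 over all regions called in every untreated library. A higher mean with the inhibitor was seen at 504 restored regions (81.3%), at 373 still-lost regions (46.2%) and at 86 mirrored regions (18.5%), and at 56.9% of the regions called in every untreated library. The 65, 20 and 4 regions of the 3 sets with every ERKi 4h library above every 4h library follow the same order, at 10.5%, 2.48% and 0.860%.

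**Figure D3:**
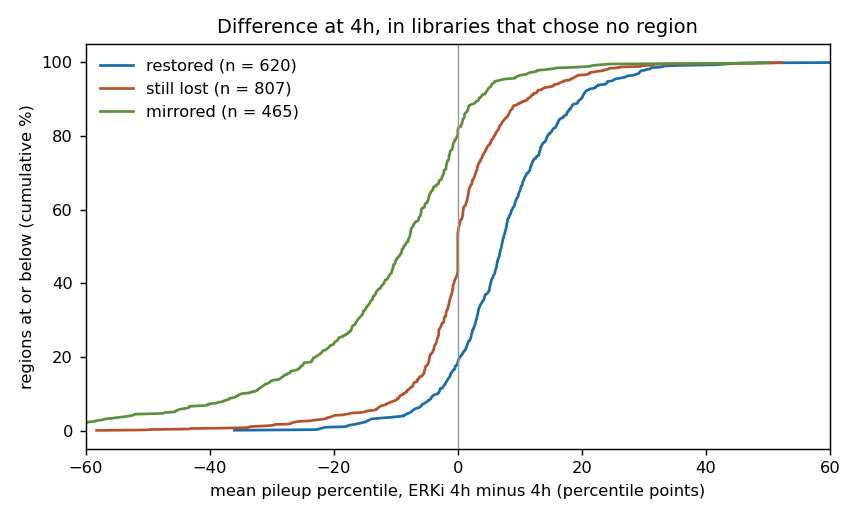
Cumulative share of regions (%, vertical axis) at or below each difference in mean pileup percentile, ERKi 4h minus 4h (percentile points, horizontal axis), for restored, still-lost and mirrored regions. The restored curve lies to the right, with a median of 7.05, and the mirrored curve to the left, with a median of -8.73.

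Calls at 4h switched completely with the inhibitor at 6 restored regions, which had a peak in 3 of 3 libraries at ERKi 4h and in 0 of 3 at 4h. They were 0.968% of the restored regions, beside 5 still-lost regions (0.620%) and 0.0875% of the regions called in every untreated library, and are given as single cases. They were singled out after their values were seen. Their nearest genes are Dusp14, Pfkfb3, Cdc7, which encodes a kinase needed for DNA replication to start, 1110004F10Rik, Zbtb8b and Slc22a15. The Pfkfb3 region, 68370 bp downstream of the nearest transcript start, stood at percentiles 36.5, 31.0 and 33.2 at 0h, had no peak at 4h, and stood at 40.8, 42.8 and 41.7 at ERKi 4h. At ERKi 24h it was at 46.1, 28.2 and 53.3. This region was thus above every untreated library at ERKi 4h and overlapped the untreated libraries at ERKi 24h. Its fold enrichment ran from 2.66 to 4.55 where it was called. The other 4 of the 6, with Dusp14 left aside, were low, with mean percentiles of 7.40 to 15.2 at ERKi 4h. The reverse, 3 of 3 at 4h and 0 of 3 at ERKi 4h, was seen at 1 restored region (0.161%) and at 0.387% of the regions called in every untreated library. It lies in an intron of Lrig1, which encodes a negative regulator of EGF receptors. It stood at 29.6, 42.2 and 36.3 at 4h and at 29.5, 0 and 41.1 at ERKi 24h.

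Genes near restored regions were read from 9 lists of 345 genes, of which 342 are in the annotation. A region was given to the protein-coding gene with the nearest start site of any transcript, which need not be the gene that holds it. Distances are from that start site, which can lie inside the gene. The 620 regions had 564 nearest genes, and 30 of them (4.84%) had a listed gene, against 4.74% of all regions, so the lists as a whole took their background share. By role, 8 regions belonged to TGF-β and BMP pathway genes (1.29%, against 0.694% of all regions), 6 to epithelial junction and polarity genes (0.968%, against 0.668%) and 6 to epithelial transcription and splicing regulators (0.968%, against 0.700%). ERK feedback, AP-1 and receptor genes had 5 (0.806%, against 0.844%), basement membrane and integrin genes 2 (0.323%, against 0.404%), Wnt and Notch pathway genes 2 (0.323%, against 0.523%) and cytokine, chemokine and innate response genes 1 (0.161%, against 0.417%). Keratin genes had none, and mesenchymal genes had none where 0.372% of all regions lay nearest to such a gene. Every list's exact 95% binomial interval contained the share over all regions.

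In the ERK feedback list, Dusp14 had a pair of adjoining regions. The region 5233 bp upstream of the start site was at percentiles 54.9, 53.9 and 71.1 at 0h, had no peak at 4h or 24h, and was at 50.3, 64.9 and 80.2 at ERKi 4h and at 57.6, 52.6 and 69.8 at ERKi 24h. Its level with the inhibitor overlapped that of untreated cells at either time. Its fold enrichment was low throughout, at 2.02, 1.92 and 2.35 at 0h, over a local background of 32.6, 22.9 and 31.4 fragments. The adjoining region, 4371 bp upstream, had peaks in replicates 2 and 3 at 4h, at 62.0 and 66.9, and at ERKi 4h, at 66.9 and 80.2, and no peak in replicate 1 of either. The region 4371 bp upstream ends at chr11:83887437, and that 5233 bp upstream starts at chr11:83887454. At this locus the calls at 4h were therefore on and off on the 2 sides of a short gap, and the loss at 24h took in both sides. The part of the place of peak edges in this difference was not tested. Fos, the AP-1 subunit that ERK signalling induces, had a region 52557 bp downstream of its start, at 8.75, 13.4 and 34.1 at 4h and at 23.1, 32.7 and 32.7 at ERKi 4h. The libraries overlapped there. The regions nearest to Fgfr2, a growth factor receptor, lay outside the gene, 88684 bp and 105691 bp downstream of a transcript start inside it. They were weak, with means of 7.80 and 22.1 at 0h.

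Of the 8 regions of the TGF-β and BMP list, 5 were nearest to a TGF-β receptor gene. Counting all regions, Tgfbr2 was nearest to 50 and Tgfbr3 to 22, and no share of all regions is given for the receptor genes as a set. The list's interval was 0.559% to 2.53%, and 1.12% of the still-lost regions lay nearest to one of its genes. The region 14431 bp upstream of Tgfbr3 stood at 39.8, 29.4 and 37.2 at 0h and at 12.8, 18.4 and 27.7 at 4h. It was at 26.3, 37.3 and 55.6 at ERKi 4h and at 48.2, 46.0 and 66.3 at ERKi 24h, where it was above all untreated libraries. Its fold enrichment at ERKi 24h, 7.08, 6.46 and 8.22, was also above the 5.16 to 6.10 of the untreated libraries. The other Tgfbr3 region lay outside the gene, 64831 bp downstream of a different transcript start, which is inside the gene. This region was called in 1 of 3 libraries at 4h and stood at 13.5, 31.0 and 30.1 at ERKi 4h, each above all 4h libraries.

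At Tgfbr2, the region 57162 bp upstream was at 52.4, 42.2 and 58.3 at 0h, at 10.8, 0 and 30.5 at 4h and at 23.1, 27.4 and 41.7 at ERKi 4h. It was higher with the inhibitor in 3 of 3 replicate numbers, with overlapping libraries, and stood at 9.32, 0.729 and 30.0 at ERKi 24h, below every untreated library. The region 13786 bp upstream was at 57.2, 50.1 and 71.1 at 0h and had no peak in replicate 2 at 4h or at ERKi 4h. In the intron of Tgfbr1, the type I receptor, a region called in every library at 4h and ERKi 4h averaged 14.6 at 0h, 13.2 at 4h and 20.3 at ERKi 4h.

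Inhibitors of the pathway had 3 regions. Smurf1, a ubiquitin ligase that acts on Smads and receptors, had an intronic region at 43.1, 0 and 64.8 at 4h and at 56.6, 58.6 and 76.7 at ERKi 4h, higher in each replicate number. At Smad7, an inhibitory Smad, the region, which lies within the gene Ctif, was called in 2 of 3 libraries at 4h, in 1 of 3 at ERKi 4h and in 2 of 3 at ERKi 24h, against the direction of most restored regions at 4h. A region 107087 bp downstream of the start of Smad6, the other inhibitory Smad, averaged 5.65 at 4h and 14.9 at ERKi 4h.

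Among epithelial regulators, Grhl3 had 2 regions on either side of its start site. The region 2901 bp inside the gene was at 53.9, 29.4 and 65.5 at 0h, 29.6, 38.3 and 52.9 at 4h, and 42.7, 44.0 and 59.8 at ERKi 4h. It was higher with the inhibitor in 3 of 3 replicate numbers, and the libraries overlapped. The region 2181 bp upstream was at 19.5, 0 and 35.2 at 4h and at 38.8, 38.7 and 53.4 at ERKi 4h, where every library lay above those at 4h. At ERKi 24h the intronic region was at 18.4, 0 and 24.6 and the upstream region at 0, 0.729 and 34.4, so that both were restored in 2 of 3 libraries.

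The region 80227 bp downstream of the start of Ehf was lower at 4h than in untreated cells and was restored only at a low level. It was at 40.5, 36.9 and 37.2 at 0h, at 4.65, 16.0 and 21.4 at 4h and at 11.2, 25.5 and 25.5 at ERKi 4h. At ERKi 24h it was at 0, 0.729 and 0.813, among the lowest peaks of those lists, with fold enrichments of 3.16 and 3.08 where called against 5.69 to 6.26 at 0h. Hnf4a, a nuclear receptor of epithelia, had an intronic region called in 3 of 3 libraries at ERKi 24h, at 18.4, 24.3 and 27.4. Foxp1 had an intronic region at 6.69, 0 and 17.8 at 4h and at 21.4, 16.4 and 41.7 at ERKi 4h. At Nr3c1, the glucocorticoid receptor, calls went from 1 of 3 libraries at 4h to 3 of 3 at ERKi 4h.

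The junction and polarity genes had restored regions of mixed course. Llgl2, a regulator of basolateral polarity, had an intronic region at 78.2, 70.4 and 88.8 at 0h and 53.6, 62.7 and 72.5 at 4h, and had no peak in ERKi 4h replicate 2. Ctnnb1, which encodes β-catenin, is the nearest gene of a region 170142 bp upstream that stood at 53.7 ± 9.64 at 4h and 54.4 ± 11.9 at ERKi 4h (SD, n = 3). Neither was higher at ERKi 4h beyond its spread. Cmtm8 had an intronic region at 0, 13.4 and 11.6 at 4h, at 24.8, 23.4 and 44.6 at ERKi 4h, and at 47.5, 38.2 and 53.8 at ERKi 24h, which was above the 21.2, 21.9 and 30.4 of untreated cells. Every ERKi 4h library lay above every 4h library there. Shroom3, which drives apical constriction, had an intronic region and another in an exon, both higher with the inhibitor in 3 of 3 replicate numbers. The region upstream of Cldn1, a tight junction claudin, was called in all libraries at 4h and ERKi 4h and averaged 16.7 and 21.6.

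Of the remaining listed genes, Jag1, a Notch ligand, had a region at 20.9, 32.3 and 52.9 at 4h and at 27.8, 45.2 and 48.3 at ERKi 4h. Tcf7l1, a DNA-binding partner of β-catenin, had a region called in 2 of 3 libraries at 4h and 3 of 3 at ERKi 4h, at 6.35, 21.2 and 36.3. Lamb3, a laminin chain of the basement membrane, had an intronic region whose mean was lower at 0h, 31.5, than at 4h, 49.1, and ERKi 24h, 53.6. The Itga1 region was called in 1 of 3 libraries at 4h and 3 of 3 at ERKi 4h, with means of 7.12 at 4h and 5.04 at ERKi 4h, so that the mean was lower where more libraries had a peak. That of Ccl5, a chemokine, was called in 2 of 3 at either.

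**Figure D4:**
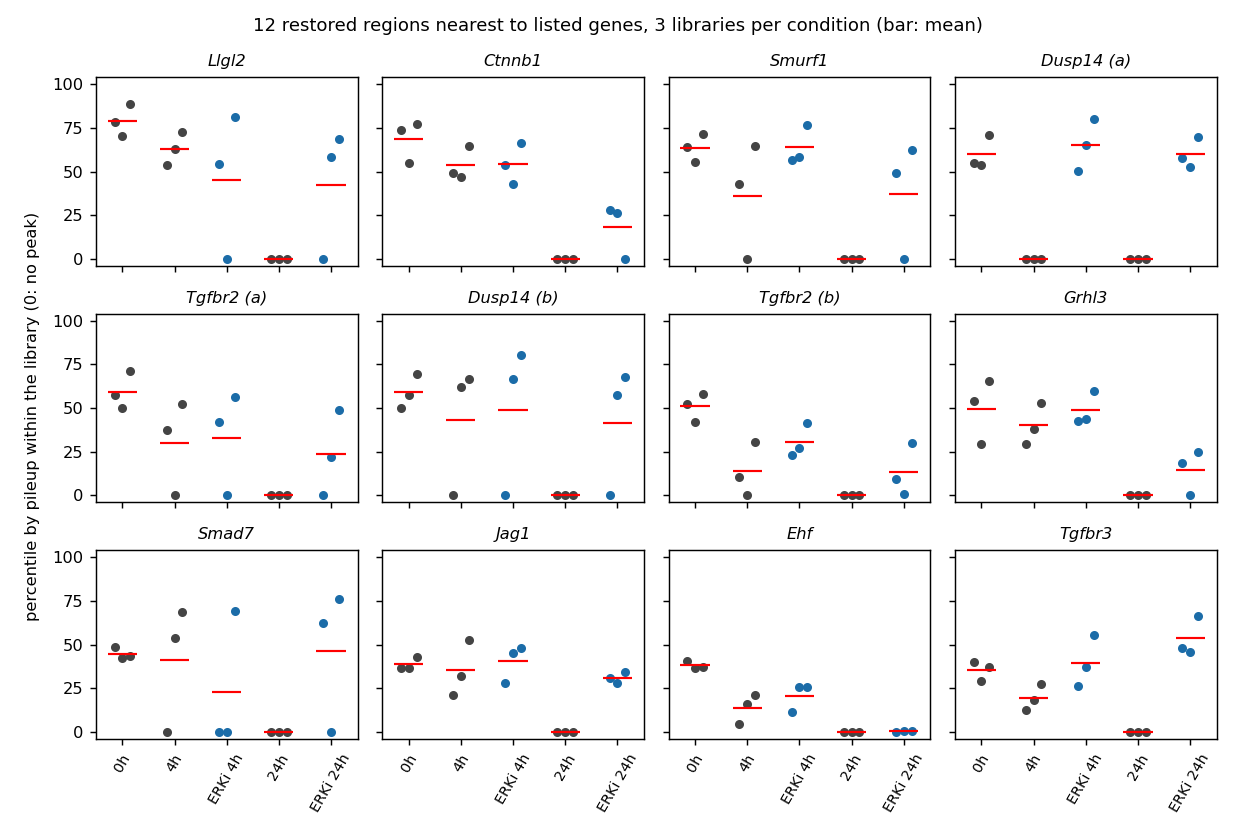
Percentile by pileup within the library (vertical axis, 0 for no peak) of 12 restored regions nearest to listed genes, in 3 libraries per condition, with red bars for means, grey points for cells without and blue points for cells with the inhibitor. The Dusp14 region marked (a) has no peak in any library at 4h or 24h and lies at 50.3 to 80.2 with the inhibitor at 4h, and at Ehf the ERKi 24h points lie at 0 to 0.813.

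The highest restored regions by pileup at 0h were enriched little over their surroundings. The 10 highest lie nearest to C030046E11Rik, Myh9, which encodes a non-muscle myosin chain, Thoc6, Glis2, Kcnk5 (2 regions), Tchp, Llgl2, Sall3 and Acpl2. At the highest, which lies in an intron of Pdcd1lg2, the gene of PD-L2, with the start of C030046E11Rik nearest, the fold enrichment was 1.82, 1.92 and 1.78 at 0h over a background of 198.3, 124.0 and 165.1 fragments. The pileup percentile there was over 98 wherever a peak was called, while 4h replicate 1 and all of 24h had no peak. Its fold stayed between 1.66 and 2.06 in all 11 libraries that called it. In the Tchp region, which lies in a UTR, all libraries at ERKi 4h (94.1, 94.3 and 98.6) were above those at 4h (80.5, 76.2 and 87.3). In the Myh9 intron the order was reversed in 3 of 3 replicate numbers, from 88.6 ± 6.44 at 4h to 82.3 ± 5.16 at ERKi 4h (SD, n = 3), with overlapping libraries. The Thoc6 promoter had no peak in any of the 6 libraries at 4h.

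By fold enrichment at 0h, the 5 highest restored regions were nearest to Ccdc158, Cbr1, Gm7536, Speer4b (within Dpp6) and Rassf9, and these were also named after their values were seen. The Ccdc158 region had folds of 10.6, 9.32 and 7.74 at 0h, 5.86, 7.09 and 8.44 at 4h and 7.24, 7.77 and 8.19 at ERKi 4h. At ERKi 24h it had folds of 4.62 and 6.68 in replicates 2 and 3 and no peak in replicate 1. This region had a clear peak in each of the 6 libraries at 4h and, by the rule, none at 24h.

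As nearest gene, 4 genes had 3 or more restored regions, which were not all close together. Zbtb10, a zinc finger gene, had 4, and Ank, which encodes a pyrophosphate transporter, Abcb5, an ABC transporter gene, and Gm17474 had 3 each. Counting all regions, Zbtb10 was nearest to 27, Ank to 48, Abcb5 to 9 and Gm17474 to 10. A pair of adjoining regions over 200 kb upstream of Ank had clear peaks. The wider had folds of 7.91, 5.97 and 7.65 at 0h and 7.55, 6.73 and 9.43 at 4h. With the inhibitor, its folds were 8.75, 8.11 and 9.82 at ERKi 4h, against 7.79, 6.03 and 9.62 at ERKi 24h. By percentile the 3 Ank regions were higher at ERKi 4h than at 4h in 3 of 3 replicate numbers, by 15.8 to 20.4 points in the mean. None of them had a peak in any library at 24h. Of the Zbtb10 regions, 2 had every ERKi 4h library above every 4h library. All restored regions together lay within 10000 bp of another restored region in 48 cases (7.74%), beside 1.97% of the regions called in every untreated library that lay that near to a restored region. Of the still-lost regions, 3.97% did so. Regions parted by a short gap, such as the pair upstream of Ank, count as separate in these shares. When peaks within 1000 bp were joined, 458 regions met the rule.

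Restored regions lay away from promoters. A promoter was the stretch between 1000 bp before a start site and 100 bp after it, and it held the summit in 27 cases (4.35%, exact 95% binomial interval 2.89 to 6.27), against 21.4% of the regions called in every untreated library and 5.20% of the still-lost regions. Over all regions the promoter share was 11.8%. Introns held 44.2% of restored regions, near the 44.1% of all regions, and intergenic sequence 47.7%, against 38.1%. The nearest start site was at a median of 20461 bp, against 7610 bp for all regions called at 0h, and 15.3% were over 100 kb away, against 9.55%. Over all regions the median was 15169 bp and 12.8% were over 100 kb away, a share inside the restored regions' interval of 12.6 to 18.4. Distal position was thus shared with the still-lost regions. The median GC content of the 300 bp windows was 47.0%, against 51.0% for the regions called in every untreated library and 46.3% for the still-lost regions. A region called in every library at 24h lay within 1000 bp of 88 restored regions (14.2%), against 15.9% of the still-lost regions and 33.2% of the regions called at 0h.

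Motifs were counted in the 300 bp windows as letters only, without a test. TEAD letters were in 19.5% of restored regions (interval 16.5 to 22.9), 19.2% of still-lost regions, 18.9% of mirrored regions and 16.3% of all regions. The C/EBP letters were in 13.9%, 12.5%, 10.3% and 11.1% in the same order. The HNF1 letters, which stand in 10 restored regions, were in 1.61%, 1.73%, 1.29% and 0.714%. The shares of TEAD and HNF1 letters were thus above that of all regions in all 3 sets, the mirrored one included. HIF letters were in 4.35% of restored regions, 2.11% of still-lost regions, 2.58% of mirrored regions and 3.03% of all regions. GRHL letters were in 2.90%, 2.23%, 1.29% and 2.17% in the same order. The intervals of the restored shares for HIF (2.89 to 6.27) and GRHL (1.73 to 4.55) contained the shares of all regions. AP-1 letters stood in 7.26% of restored regions, which is 0.715 of the share over all regions, and in 7.47% of the regions called in every untreated library. AP-2 letters (GCCNNNGGC) were in 7.42% against 11.6% of all regions, and ETS letters (CCGGAAG) in 1.29% against 2.40%. The interval of the restored share for ETS (0.559 to 2.53) contained the share of all regions, and that for AP-2 lay below it. Distal regions alone had lower shares of both motifs than all regions, 1.83% for ETS, so both gaps were smaller against them. The AP-2 interval also lay below the share of distal regions. The median GC content of the windows was 47.0% in restored regions and 48.0% over all regions, and its part in these shares was not tested.

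**Figure D5:**
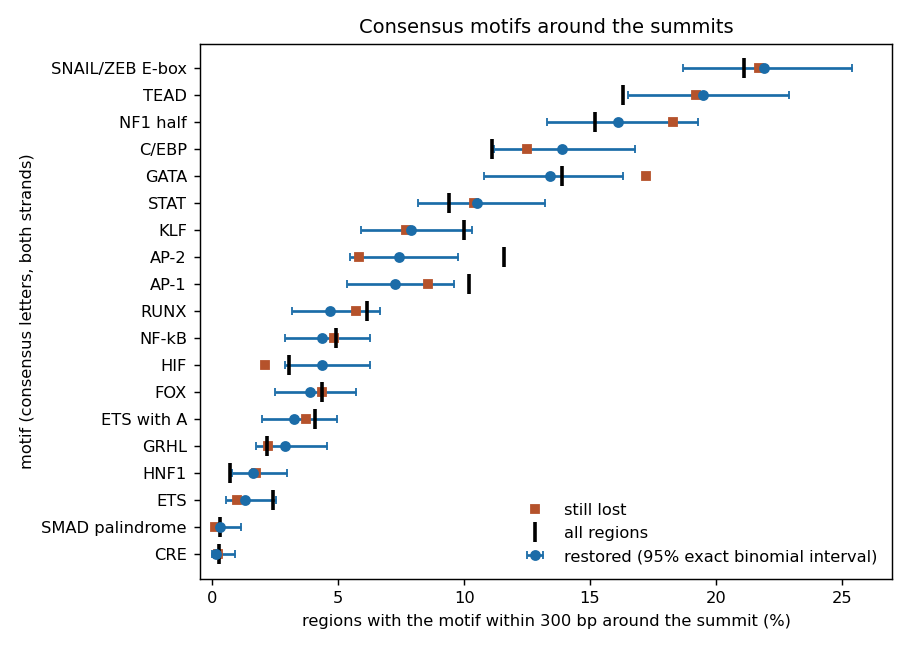
Share of regions (%, horizontal axis) with each of 19 consensus motifs within 300 bp around the summit, for restored regions (points with exact 95% binomial intervals), still-lost regions (squares) and all 89050 regions (bars). For TEAD the restored share is 19.5% and the still-lost share 19.2% beside 16.3% of all regions, and for AP-2 the restored share is 7.42% beside 11.6%.

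The limits of the rule can be seen at the regions on either side of it. Just inside were the Thoc6 and Glis2 regions, with peaks in 2 of 3 libraries at ERKi 24h and mean percentiles of 86.8 and 85.3 at 0h. Just outside were a region 1146 bp upstream of Junb, an AP-1 subunit, and 1 within Dlgap1 with the start of Tgif1, a Smad corepressor, nearest, with a peak in 1 of 3 libraries at ERKi 24h and means of 95.5 and 93.6 at 0h. With a peak in 1 of 3 libraries at 24h, the regions near Slco2a1 and Ddit4l were also just outside, at 94.2 and 92.3 at 0h. All of these had fold enrichments of 1.79 to 3.12 at 0h.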

How the data were processed

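H3K27ac peaks of 15 ChIP-seq libraries (3 for each of 5 conditions) were used. The 10 RNA-seq and 3 input samples were not analysed here. The authors mapped reads to the mm9 genome by bowtie, and MACS2 at its defaults found the peaks of each library. The deposited lists give fold enrichment, a ratio of pileup to local background, -log10 p and -log10 q, and the summit offset. No value was normalized between libraries, and the libraries' depth is unknown.

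Peaks sharing at least 1 bp were joined across all lists. Pileup and background were solved from the fold, as (pileup + 1) / (background + 1), and the Poisson -log10 p, which worked for all 7998 peaks of restored regions and was tested on simulated data. Members, gene lists, motifs and comparisons were chosen with earlier results of these data known. Named regions are the 10 highest by mean pileup percentile at 0h, 12 with a listed gene, genes with 3 or more restored regions, and 2 just outside each neighbouring rule. The 18 further regions with listed genes, and those said to be so, were chosen after their values were seen.

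Libraries of 4h and ERKi 4h with the same replicate number deviated together from their condition's mean (correlation over restored regions 0.290, 0.410 and 0.500 by pileup percentile, 0.153, 0.190 and 0.232 by calls), so the numbers, which the labels share across conditions, were taken to pair the samples. Replicate 3 held the most peaks in each condition, and the part of list length in these correlations was not tested. Tests were exact permutation tests, 3 libraries against 3, and exact sign-flip tests with the replicate block. Labels do not say whether replicates were separate cultures, so p-values measure only the spread between these libraries. Annotation was GENCODE vM1 on NCBIM37 (mm9), which also gave the sequences. Start sites of 3 listed genes (Tfap2a, Tfap2b, Tfap2c) were not found there. Python 3.11.15, NumPy 2.4.6, SciPy 1.17.1, pandas 2.3.3, pysam 0.24.0 and matplotlib 3.10.9 were used.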

Additional observations from a re-analysis of the deposited data

How the results depend on the processing

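Of the values for the comparisons under alternatives, 173 stayed within the spread between libraries, within the interval of a share or within 1.5 times a count, and 32 moved beyond it. No difference between ERKi 4h and 4h changed sign, though some that stayed within the spread were smaller, such as 4.30 points from 20 to 40 in starting level. The number of restored regions was 361 with peaks of -log10 q of at least 10, 278 with fold enrichment of at least 5 and 310 when all 3 libraries at ERKi 24h were required, by construction of these stricter rules. The regions with every ERKi 4h library above every 4h library were then 43 by -log10 q and 27 by fold. No share over all regions is given beside the counts above or below under any alternative. The regions with every library below were 2 by -log10 q, 7 by fold, 0 with 3 of 3 at ERKi 24h, 2 when regions within 1000 bp were joined, 2 when a peak had to cover at least 0.5 of the region, and 10 by the percentile of fold enrichment, which was chosen after seeing the data. The share in promoters was 13.5% within 2500 bp of a start site, and the RUNX share fell to 0.487 of that of all regions in 200 bp windows. The CRE letters (TGACGTCA), held by 1 restored region, went from 0.584 to 1.28 of that share. Leaving out each library in turn gave 620 to 1129 restored regions, 67 to 243 higher and 4 to 30 lower regions, and 65.6% to 80.9% called at 4h. It gave a difference of 6.37 to 21.7 points in the share called, 3.34 to 12.4 in the percentile and 7.09 to 13.9 between restored and still-lost regions. With 50000 peaks per library, 731 regions met the rule and the difference in the share called was 8.48 points (exact permutation p = 0.10). The window of starting levels from 20 to 40 and the comparisons with mirrored regions, all regions called at 0h and neighbouring regions were also chosen after seeing the data. The replicate block gave an exact p of 0.25 for each of the 6 tests, and as neither test can pass 0.05 with 3 libraries, it changed no call. Peak lists hold no value where no peak was called, which limits each percentile near 0.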

Other observations

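Restored regions were spread over all chromosomes apart from M, from 0.365% of the regions on chromosome 8 (17) to 1.08% of those on chromosome 9 (50), and chromosome 3 held the most, 53. Their median width was 831 bp, against 612 bp for still-lost regions and 1262 bp for all regions called in every untreated library. Besides Lrig1, the regions with every ERKi 4h library below every 4h library were nearest to Krr1, Mllt3 and Icam4 (within Icam1), named after their values were seen. The Krr1 region stood at 36.4, 30.6 and 29.1 at 4h and at 19.5, 13.8 and 23.8 at ERKi 4h, and was called in 2 of 3 libraries at ERKi 24h. Of the regions without a peak at 24h and with peaks in at least 2 of 3 libraries at ERKi 24h, 3001 of 4598 had no peak in any untreated library, and 620 had 1 in all of them.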
